A study of Mus musculus with 6 samples.

Results

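The genes described here are the FOS family (Fos, Fosb, Fosl1, Fosl2), the JUN family (Jun, Junb, Jund), the related factor Atf3, and the early response genes Egr1 and Ier2. They were chosen by gene symbol, and all 10 have a row among the 24964 symbols of the deposited table. RNA was sequenced from 6 uterine libraries of mice at gestation day 13, from tissue around the sites of embryo implantation. Of these, 3 carry the genotype label myometrial PGR knockout and 3 the label control; PGR is the progesterone receptor, encoded by Pgr, and the myometrium is the muscle layer of the uterus. Strain, age, parity, the allele used, the Cre driver (if any) and whether each library is a separate animal are details that the sources used here do not give, so the p-values measure the spread between libraries, which may be technical.

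FOS and JUN proteins carry a basic leucine zipper and bind DNA in pairs, and the pairs are called AP-1. FOS proteins need a JUN partner, whereas JUN proteins can also pair with themselves. Fos, Jun, Junb, Atf3, Egr1 and Ier2 are immediate early genes, transcribed within minutes of stretch, growth factors or stress without new protein synthesis. In the myometrium, AP-1 rises near labour and acts on contraction genes such as Gja1, which encodes the gap junction protein connexin 43.

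The promoters of 3 members are shown, that of Jun because it had the smallest p of the group and those of Fos and Atf3 because they hold the core letters of a cyclic AMP response element. Of the 10 members, 7 had an entry in the RefSeq promoter table (GRCm38.p6); Fosl1, Egr1 and Ier2 had none. Each sequence is the 250 bases before the RefSeq start, 5′ to 3′ on the gene's strand, with motif matches in capitals. The positions are chr4:95052223-95052472 (minus strand) for Jun, chr12:85473640-85473889 (plus strand) for Fos and chr1:191183334-191183583 (minus strand) for Atf3. The Atf3 start is an internal one, since all 250 bases lie within the longer gene of GENCODE M21.
Jun: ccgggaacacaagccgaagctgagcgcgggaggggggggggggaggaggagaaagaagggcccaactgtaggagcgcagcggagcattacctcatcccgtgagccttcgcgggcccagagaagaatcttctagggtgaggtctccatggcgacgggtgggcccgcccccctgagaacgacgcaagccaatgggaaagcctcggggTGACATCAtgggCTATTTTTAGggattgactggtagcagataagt
Fos: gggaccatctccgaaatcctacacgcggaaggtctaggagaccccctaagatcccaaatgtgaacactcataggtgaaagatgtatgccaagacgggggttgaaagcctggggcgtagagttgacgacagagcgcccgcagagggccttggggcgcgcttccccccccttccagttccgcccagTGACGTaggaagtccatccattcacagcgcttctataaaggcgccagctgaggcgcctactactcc
Atf3: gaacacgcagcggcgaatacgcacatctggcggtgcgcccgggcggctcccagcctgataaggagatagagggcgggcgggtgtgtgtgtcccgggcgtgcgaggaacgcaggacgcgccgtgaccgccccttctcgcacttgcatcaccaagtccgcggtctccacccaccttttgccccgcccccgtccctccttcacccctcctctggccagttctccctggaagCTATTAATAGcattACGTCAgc
The motifs were searched on both strands. Jun holds TGACATCA, a match to TGACNTCA, which 7.49% of 32851 promoters of the same length hold, and just after it a MEF2 element, which 0.508% hold. Fos holds TGACGT, found in 6.47% of promoters, and Atf3 holds its reverse complement ACGTCA besides a MEF2 element of its own. A stretch that matches TGACGT can be part of a match to TGACNTCA, which did not happen in the members. No match to TGANTCA, the classic AP-1 site (6.75% of promoters), or to the CArG box (1.47%) lay in any of the 7 windows. All 250 bases of the Fosl2 window lie in an untranslated region of GENCODE M21. The Jund window ends at base 70697738 of chromosome 8, before the GENCODE gene start at 70698949. Bases outside the windows were not searched. A match is a description of the letters, not a site shown to be bound.

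The values are FPKM, fragments on a gene scaled to its length and to the library, so levels can be compared between genes. Summed FPKM lay between 357126 and 372372 in the deficient-labelled libraries and between 372412 and 377091 in the controls. Low values of genes with a single annotated transcript were nearest to whole reads at library sizes between 36650000 and 36950000. These sizes were found by search, and clearly different sizes scored nearly as well (in control 2, 0.599 against 0.640 on a scale where 1 is whole reads throughout). The size may be the depth of each library or a common size in the formula. At a median of 36850000, 3 reads on a gene of 1 kb would give 0.0814 FPKM. Pgr itself was at 11.3, 12.4 and 7.73 FPKM in the deficient-labelled libraries and at 9.72, 8.33 and 12.1 FPKM in the controls. Its mean was not the lower of the pair (difference in log2(FPKM + 1) 0.05, SE 0.19, limma adjusted p = 0.91), and the sign of that difference turned under several settings. Without replicate 3 of both groups it was 0.36 (limma adjusted p = 0.089). Which part of Pgr was deleted is not known here, and the tissue holds more cell types than muscle, so the summed Pgr level tells little about the label in either direction. As this check does not bear the label out, the group is called the deficient-labelled libraries. Replicate 3 stood apart in both groups: across the genes tested, deficient 3 correlated at 0.976 and 0.971 with deficient 1 and 2, which correlated at 0.991 with each other, and control 3 at 0.983 and 0.982 with controls 1 and 2, which correlated at 0.992.

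No member passed the test of the deficient-labelled libraries against controls. The main test was limma on log2(FPKM + 1) over the 12500 genes averaging 1 FPKM or more, of which 3.34% passed an adjusted p of 0.05 (1.34% higher, 1.99% lower); 9 of the 10 members entered it and 0 were called. At an unadjusted p under 0.05 there were 2 members, Jun (lower) and Fosl2 (higher), where 21.5% of all genes tested reach that level (7.09% lower, 14.4% higher). For 1 of the 9, Jun, the groups did not overlap, against 29.0% of all genes tested (8.16% lower, 20.8% higher), so these shares do not set the members above the background. The median difference of the 9 was 0.12 on the log2 scale, beside 0.06 for all genes tested. Fosl1 was below the filter.

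**Figure D1:**
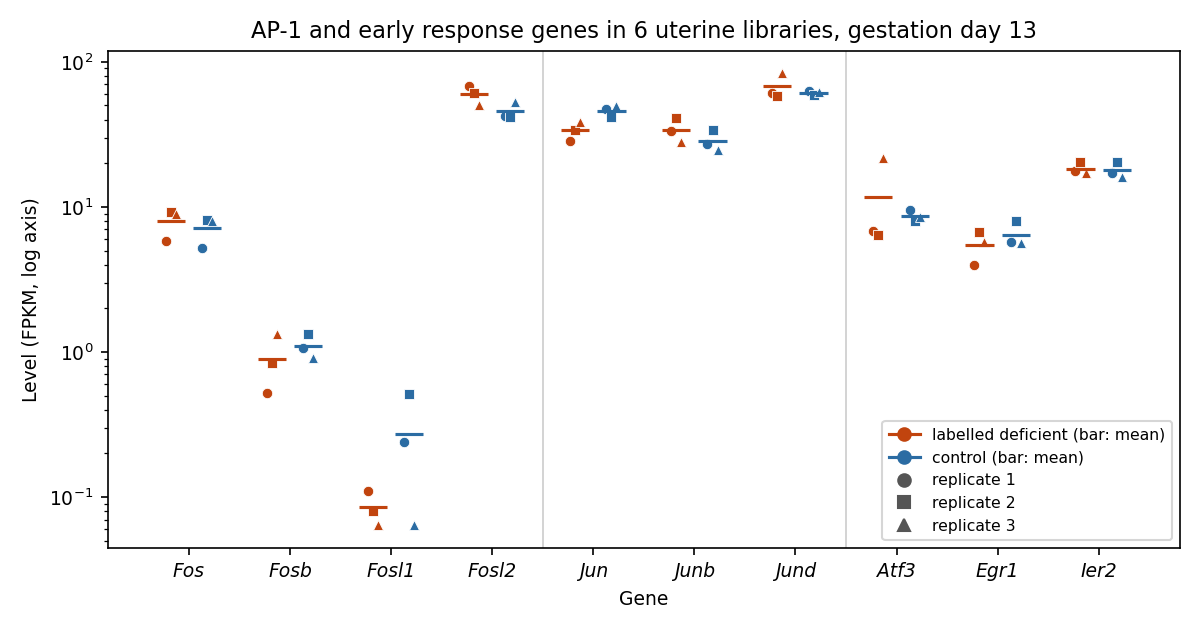
Level in FPKM (log axis) of the 10 genes in each library, with the deficient-labelled libraries left of the controls, marker shape for the replicate number and a bar at the group mean. Jun lies lower in every deficient-labelled library than in any control, Fosl2 is higher in deficient 1 and 2 but not in deficient 3, and Atf3 has a single high value of 21.8 FPKM in deficient 3.

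Among the FOS genes, Fosl2 was by far the most abundant. Fosl2 encodes FRA-2, a FOS protein without the strong activation domain of FOS, and lies on chromosome 5 from 32135801 to 32157842 (GRCm38, plus strand). It was at 68.6, 60.6 and 50.5 FPKM in the deficient-labelled libraries and at 42.6, 41.8 and 53.0 FPKM in the controls. Deficient 1 and 2 were above every control, whereas deficient 3 was below control 3, so the groups overlapped. The means were 59.9 ± 9.1 FPKM in the deficient-labelled libraries and 45.8 ± 6.2 FPKM in the controls (SD, n = 3 each). The difference was 0.38 on the log2 scale with a standard error of 0.14 and a 95% interval of 0.04 to 0.72, and it did not pass (limma adjusted p = 0.20). It passed with replicate 3 of both groups left out, at 0.60 (limma adjusted p = 0.022), and with array weights, at 0.55 (limma adjusted p = 0.024).

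Fos, the founding member and a fast, short-lived transcript, was at 5.85, 9.28 and 8.99 FPKM in the deficient-labelled libraries and at 5.22, 8.18 and 8.05 FPKM in the controls. Replicate 1 of each group was the low library, and the ranges overlapped over most of their length. The difference was 0.15 on the log2 scale (SE 0.21, 95% interval -0.37 to 0.66, limma adjusted p = 0.73). Fosb, which makes a full and a truncated protein by splicing, was at 0.525, 0.837 and 1.34 FPKM in the deficient-labelled libraries and at 1.07, 1.33 and 0.906 FPKM in the controls. Both the highest and the lowest Fosb value belonged to the deficient-labelled libraries, and with a mean of 1.00 FPKM over the 6 libraries the gene entered the test just above the filter (log2 difference -0.16, SE 0.17, limma adjusted p = 0.63). The difference was -0.32 without deficient 3 (limma adjusted p = 0.25), -0.39 without replicate 3 of both groups (0.15 by the same adjustment) and -0.014 without deficient 1.

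Fosl1, which encodes FRA-1, was the least abundant member. It was at 0.111, 0.080 and 0.064 FPKM in the deficient-labelled libraries and at 0.238, 0.510 and 0.064 FPKM in the controls. The deficient-labelled libraries were all low, and control 3 was as low as the lowest of them. The 6 values lay within 0.1 of a step of whole multiples of 0.0160 FPKM, the largest step found by search to fit so closely. If 1 step were 1 read, these would be 7, 5 and 4 reads in the deficient-labelled libraries and 15, 32 and 4 reads in the controls. As the step was selected for its fit, the read numbers are uncertain. An exact two-sided permutation test of the FPKM gave p = 0.4; with 3 libraries a group it cannot go below 0.1. A protein-coding gene on the other strand, Ccdc85b, overlaps exons of Fosl1 and was at between 5.63 and 7.21 FPKM in the deficient-labelled libraries and between 10.1 and 11.7 FPKM in the controls. Whether the counting used strand is not known here, so reads of the pair may not be told apart.

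Jun was the member with the smallest p, and the values were lower in the deficient-labelled libraries. Jun encodes the JUN protein, the main partner of FOS, and lies on chromosome 4 from 95049034 to 95052222 (GRCm38, minus strand); its promoter is the first of the sequences above. It was at 28.6, 34.1 and 38.4 FPKM in the deficient-labelled libraries and at 46.9, 41.8 and 49.6 FPKM in the controls. Every deficient-labelled library lay below every control, a pattern in that direction that 8.16% of all genes tested show. The means were 33.7 ± 4.9 FPKM in the deficient-labelled libraries and 46.1 ± 4.0 FPKM in the controls (SD, n = 3 each), a ratio of 0.730. The difference was -0.45 on the log2 scale (SE 0.12, 95% interval -0.74 to -0.16), with a limma adjusted p of 0.11, so Jun was not called. Of 17 alternatives, only array weights brought it past the threshold (-0.53, limma adjusted p = 0.026), and over all of them it stayed between -0.55 and -0.34. An annotated antisense RNA, Junos, overlaps Jun and was not analysed here.

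Junb, a JUN protein that often opposes JUN, was at 33.5, 40.9 and 28.0 FPKM in the deficient-labelled libraries and at 27.2, 33.8 and 24.8 FPKM in the controls. Replicate 2 was the highest and replicate 3 the lowest in both groups, and the groups overlapped. The difference was 0.24 on the log2 scale (SE 0.17, 95% interval -0.16 to 0.64, limma adjusted p = 0.45), and 0.11 without deficient 2. An exon of Prdx2, which lies on the other strand, overlaps Junb; Prdx2 was at between 84.2 and 88.8 FPKM in the deficient-labelled libraries and between 68.9 and 82.1 FPKM in the controls.

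Jund, the JUN gene with the steadiest expression in most tissues, was at 61.3, 58.4 and 83.3 FPKM in the deficient-labelled libraries and at 63.2, 59.5 and 61.6 FPKM in the controls. The controls lay within 3.66 FPKM of each other, deficient 1 and 2 were at their level, and deficient 3 stood 1.32 times above the highest of the other libraries. The difference was 0.12 on the log2 scale (SE 0.14, limma adjusted p = 0.66) and -0.04 without deficient 3.

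**Figure D2:**
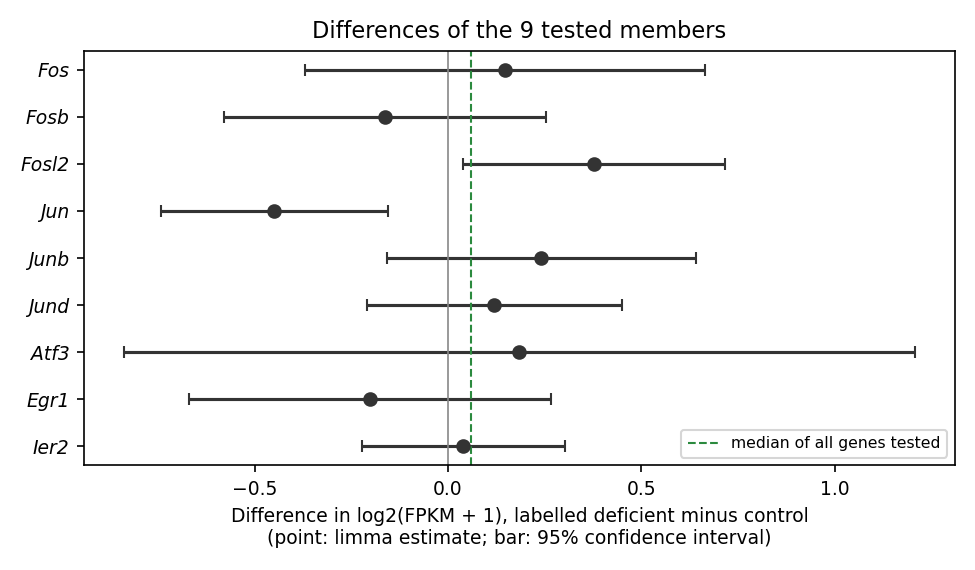
Difference in log2(FPKM + 1), labelled deficient minus control, of the 9 members tested, with 95% confidence intervals from limma; the dashed line marks the median of all genes tested, 0.06. The unadjusted intervals of Jun (-0.74 to -0.16) and Fosl2 (0.04 to 0.72) do not reach 0, the interval of Atf3 (-0.84 to 1.21) is the widest, and no adjusted p was under 0.05.

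The share of Jun in the JUN family separated the groups, while the sum of the family did not. These quantities were chosen after the values were seen, so they are given with no test. Jun alone separates the groups, so its choice largely fixes that its share separates them too. Jun, Junb and Jund together were at 123.4, 133.3 and 149.6 FPKM in the deficient-labelled libraries and at 137.3, 135.1 and 136.1 FPKM in the controls. The share of Jun in that sum was 23.1%, 25.5% and 25.7% in the deficient-labelled libraries and 34.2%, 31.0% and 36.5% in the controls. The 3 shares of the deficient-labelled libraries lay within 2.52 percentage points of each other, including deficient 3, and all were below the lowest control. Because a share is taken within a library, it does not change with the scaling of that library.

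Fosl2 was also set against Jun. Since Jun alone separates the groups and these members have the smallest p in opposite directions, their choice largely fixes that the ratio separates the groups. The ratio of Fosl2 to Jun FPKM was 2.40, 1.78 and 1.32 in the deficient-labelled libraries and 0.908, 1.00 and 1.07 in the controls. Junb relative to Jun averaged 1.03 ± 0.27 in the deficient-labelled libraries and 0.629 ± 0.159 in the controls (SD, n = 3 each), and there deficient 3, at 0.728, was below the highest control, at 0.807. The 4 FOS genes summed to 75.1, 70.8 and 60.9 FPKM in the deficient-labelled libraries and to 49.2, 51.9 and 62.1 FPKM in the controls, with deficient 3 below control 3. Fosl2 made up between 82.9% and 91.4% of that sum in the deficient-labelled libraries and between 80.7% and 86.7% in the controls.

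**Figure D3:**
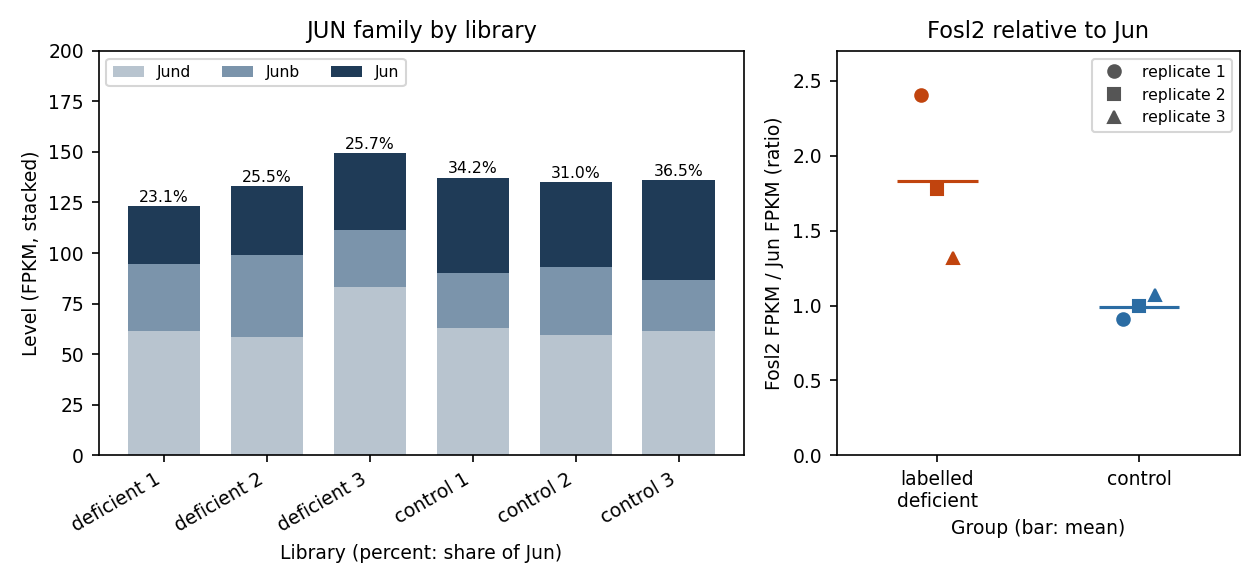
Left, stacked bars of Jund, Junb and Jun in FPKM for each library, with the share of Jun printed above; right, the ratio of Fosl2 to Jun FPKM in each library, with a bar at the group mean. The share of Jun is between 23.1% and 25.7% in the deficient-labelled libraries and between 31.0% and 36.5% in the controls.

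The highest Atf3 level came from deficient 3 alone. Atf3 encodes a stress-induced leucine zipper protein that can pair with JUN and, as a pair with itself, represses transcription; it lies on chromosome 1 from 191170296 to 191218039 (GRCm38, minus strand). It was at 6.83, 6.36 and 21.8 FPKM in the deficient-labelled libraries and at 9.49, 7.99 and 8.51 FPKM in the controls. Deficient 1 and 2 were below every control, and deficient 3 was 2.30 times the highest of the other 5 libraries. Such an excess of at least 2-fold in deficient 3 was shown by 56 of the 12500 genes tested (0.448%), against between 2 and 15 genes in each other library. The log2 difference was 0.18 (SE 0.43, 95% interval -0.84 to 1.21, limma adjusted p = 0.84), and without deficient 3 it was -0.35 (limma adjusted p = 0.11). Of 25 other leucine zipper factors tested, 6 had their highest value in deficient 3 (Atf6, Creb1, Crem, Batf, Batf3 and Nfe2l2), and 6 had it in deficient 1. Ddit3 and Atf4, factors of the stress response in that list picked after their values were seen, did not have their highest value in deficient 3. Ddit3 was at 10.4, 10.2 and 9.76 FPKM in the deficient-labelled libraries and at 8.54, 9.39 and 11.6 FPKM in the controls. Atf4 was at 88.2, 76.7 and 81.2 FPKM in the deficient-labelled libraries and at 89.1, 91.6 and 85.3 FPKM in the controls. Ppp1r15a, an immediate early gene also picked after its values were seen, did have its highest value in deficient 3. It was at 25.4, 21.5 and 26.2 FPKM in the deficient-labelled libraries and at 19.6, 18.7 and 22.8 FPKM in the controls. Of 40 other immediate early genes tested, 9 had their highest value in deficient 3 and 11 had it in control 2. The cause of the high Atf3 value was not tested.

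Egr1, a zinc finger factor switched on by serum and growth factors, was at 3.99, 6.74 and 5.75 FPKM in the deficient-labelled libraries and at 5.69, 7.97 and 5.60 FPKM in the controls. Replicate 2 was the highest in both groups, and the ranges overlapped (log2 difference -0.20, SE 0.19, 95% interval -0.67 to 0.27, limma adjusted p = 0.59). The difference was -0.023 without deficient 1 and -0.057 without control 2. Ier2, which encodes a nuclear early response protein, was at 17.6, 20.2 and 17.1 FPKM in the deficient-labelled libraries and at 17.2, 20.4 and 16.0 FPKM in the controls. The ranges of the groups overlapped almost wholly, with the narrowest interval of the 9 members tested (-0.22 to 0.30 on the log2 scale, limma adjusted p = 0.87).

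By mean level over the 6 libraries the order was Jund (64.5 FPKM), Fosl2 (52.9), Jun (39.9), Junb (31.4), Ier2 (18.1), Atf3 (10.2), Fos (7.59), Egr1 (5.96), Fosb (1.00) and Fosl1 (0.178). Neighbours whose ranges over the libraries did not overlap were Junb and Ier2, Egr1 and Fosb, and Fosb and Fosl1. From Jund to Junb, and from Ier2 to Egr1, each range overlapped that of the next gene. Jun was above Junb in 4 of the 6 libraries, all controls among them, and below it in deficient 1 and 2.

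The genes with the profile nearest to Jun, by root mean square distance between centred log2(FPKM + 1) values over the 6 libraries, were Plscr2 (0.063), Adarb1 (0.068), Hhipl1 (0.076), Tinagl1 (0.077) and Map3k6 (0.082). Tinagl1, for example, was at 26.4, 30.3 and 32.0 FPKM in the deficient-labelled libraries and at 46.7, 39.8 and 44.8 FPKM in the controls. Nearest to Fos were Cd74 (0.079), H2-Aa (0.11), Spaca7 (0.11), Il17re (0.11) and Apobr (0.11). Cd74, the invariant chain of MHC class II, was at 193.6, 258.8 and 270.6 FPKM in the deficient-labelled libraries and at 184.1, 267.8 and 259.8 FPKM in the controls, with replicate 1 the lowest in both groups, as for Fos. With 12500 genes compared, some profiles are near to any gene.

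Of 44 other immediate early genes, 40 were tested. Among these, 2 fell and 0 rose, where 1.99% and 1.34% of all genes tested did, and the median difference was -0.04. Errfi1, a feedback inhibitor of the EGF receptor, was at 53.2, 48.2 and 38.9 FPKM in the deficient-labelled libraries and at 133.8, 94.7 and 100.8 FPKM in the controls (log2 difference -1.21, SE 0.17, limma adjusted p = 0.020). Plk3, a stress-responsive kinase, was at 3.59, 3.91 and 4.47 FPKM in the deficient-labelled libraries and at 6.07, 6.90 and 6.65 FPKM in the controls (-0.60, SE 0.09, limma adjusted p = 0.023). Both had groups that did not overlap. Errfi1 lost its call when replicate 1 or 2 of either group was left out (limma adjusted p up to 0.067), and Plk3 without any single library other than deficient 3 (up to 0.10). Next by p, and not called, were Dusp1, a MAP kinase phosphatase (-0.51, limma adjusted p = 0.093), and Zfp36l1, an RNA-binding protein that speeds mRNA decay (0.34, limma adjusted p = 0.11).

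Of 28 other leucine zipper factors, 25 were tested and limma called 0. At an unadjusted p under 0.05 there were 8, where 21.5% of all genes tested reach that level. The median difference of the 25 was 0.07. The smallest p was that of Nfe2l3, a cap'n'collar factor, at 17.3, 15.3 and 12.2 FPKM in the deficient-labelled libraries and at 9.10, 10.5 and 6.76 FPKM in the controls (log2 difference 0.71, SE 0.18, limma adjusted p = 0.097). The log2 difference was -0.43 for Atf5, 0.17 for Atf7 and -0.49 for Cebpd, with limma adjusted p between 0.12 and 0.18. Nfe2l3, Atf5 and Atf7 kept their groups apart, whereas Cebpd did not. Of the 25, 7 were higher and 3 lower without overlap, where 20.8% and 8.16% of all genes tested are.

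Of 25 genes of the signalling that switches on Fos and Egr1, 24 were tested and limma called 0. An unadjusted p under 0.05 was reached by 3, against 21.5% of all genes tested. The median difference of the 24 was 0.05. Map3k1, a kinase upstream of JNK, which phosphorylates JUN, was at 7.99, 8.04 and 7.25 FPKM in the deficient-labelled libraries and at 6.36, 5.91 and 6.22 FPKM in the controls (log2 difference 0.29, limma adjusted p = 0.075). Srf, the factor that binds the CArG box, was at 17.2, 20.5 and 20.4 FPKM in the deficient-labelled libraries and at 24.5, 23.9 and 21.8 FPKM in the controls (-0.26, limma adjusted p = 0.17). The log2 difference was -0.27 for its cofactor Elk1 (limma adjusted p = 0.19) and 0.23 for the coactivator Mkl2 (limma adjusted p = 0.28). Of 17 feedback regulators, 16 were tested and limma called 0. An unadjusted p under 0.05, which 21.5% of all genes tested reach, was found for 1. This was the MAP kinase phosphatase Dusp16 (log2 difference 0.33, limma adjusted p = 0.12). The next by p were the phosphatase Dusp10 (log2 difference 0.48), the RAS pathway inhibitor Spred2 (-0.17) and the ERK phosphatase Dusp6 (-0.18), each with overlapping groups. The median difference of the feedback list was -0.10.

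Among 26 genes listed as AP-1 targets or contraction genes, 20 were tested and limma called 0. Of these 20, 6 had an unadjusted p under 0.05, against 21.5% of all genes tested. The median difference of the 20 was -0.38. The genes of this list lay on both sides of 0. Oxtr, the oxytocin receptor, was at 34.0, 36.5 and 17.3 FPKM in the deficient-labelled libraries and at 11.3, 9.29 and 11.3 FPKM in the controls (log2 difference 1.31, limma adjusted p = 0.062). Without deficient 3 the Oxtr difference was 1.64 (limma adjusted p = 0.0068), so that library decides its call. Plaur, the urokinase receptor, was at 5.58, 7.79 and 5.82 FPKM in the deficient-labelled libraries and at 10.1, 13.4 and 8.61 FPKM in the controls (-0.65, limma adjusted p = 0.11). Ptger3, a contractile prostaglandin E receptor, had a log2 difference of -0.77 (limma adjusted p = 0.11) and passed without deficient 2 (-1.01, limma adjusted p = 0.027). Vegfa, the endothelial growth factor, had a difference of 0.34 (limma adjusted p = 0.12). Gja1, an AP-1 target named after its values were seen, was at 50.3, 48.2 and 44.2 FPKM in the deficient-labelled libraries and at 41.2, 41.5 and 37.8 FPKM in the controls (0.24, limma adjusted p = 0.15). Plau, named in the same way, went in the other direction (-1.08, limma adjusted p = 0.15). It was at 69.1, 53.7 and 120.7 FPKM in the deficient-labelled libraries and at 131.9, 142.7 and 229.0 FPKM in the controls.

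**Figure D4:**
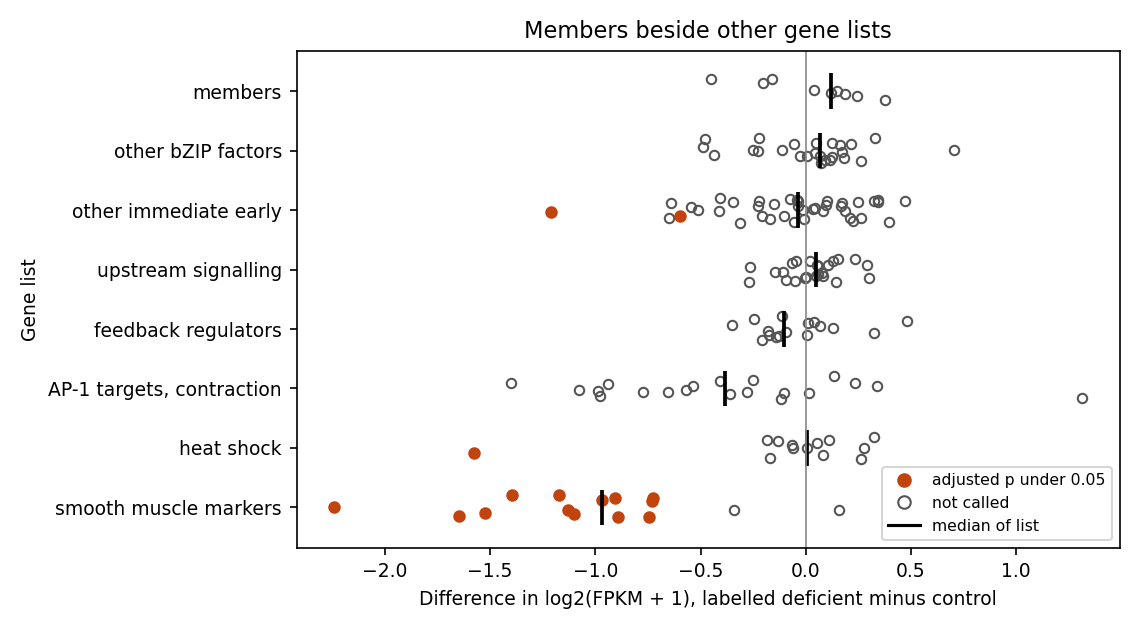
Difference in log2(FPKM + 1), labelled deficient minus control, of each gene tested in the members and in 7 other lists; filled points passed an adjusted p of 0.05, open points did not, and the vertical mark is the median of the list. No member is filled, 2 other immediate early genes and 1 heat shock gene are, and 13 of 15 smooth muscle markers lie to the left as filled points.

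The tissue was not a pure cell type, and markers of several cell types differed in the same libraries. Over all genes tested, 1.99% fell, 1.34% rose and 21.5% had an unadjusted p under 0.05. Of 15 smooth muscle markers, 13 fell and 0 rose, and their summed level was between 3755 and 4397 FPKM in the deficient-labelled libraries and between 9067 and 11016 FPKM in the controls. Of 11 epithelial markers tested, 2 rose and 0 fell, with sums between 1015 and 1445 FPKM in the deficient-labelled libraries and between 856.3 and 999.1 FPKM in the controls. Of 10 macrophage markers 0 were called, nor was any at an unadjusted p under 0.05, with sums between 1098 and 1222 FPKM in the deficient-labelled libraries and between 1057 and 1254 FPKM in the controls. Of 12 endothelial markers and 10 fibroblast markers, 0 were called in either list, with 1 and 5 at an unadjusted p under 0.05. Those 5 fibroblast markers were 4 lower and 1 higher, and without overlap of the groups 6 were lower and 1 higher. Fibroblast sums were between 5928 and 6278 FPKM in the deficient-labelled libraries and between 6634 and 7201 FPKM in the controls. Endothelial sums were 215.1, 201.3 and 261.6 FPKM in the deficient-labelled libraries and between 212.2 and 232.0 FPKM in the controls. In deficient 3, 10 of the 12 endothelial markers had their highest value. Of 9 decidual markers tested, 1 fell and 6 had an unadjusted p under 0.05 (5 lower), with sums between 103.6 and 139.0 FPKM in the deficient-labelled libraries and between 245.8 and 501.7 FPKM in the controls. These sums hold Prl8a2, which was not called (limma adjusted p = 0.089). Prl8a2 was at 5.44, 26.5 and 0.664 FPKM in the deficient-labelled libraries and at 154.7, 354.6 and 60.4 FPKM in the controls. Without overlap of the groups, 5 of the 9 were lower and 2 higher (Bmp2 and Rxfp1). Of 6 mast cell markers tested, 4 fell, with sums between 11.0 and 55.2 FPKM in the deficient-labelled libraries and between 43.3 and 76.0 FPKM in the controls. The sum of 55.2 FPKM was that of deficient 3, where Hdc, which was not called, was at 49.9 FPKM. The markers that fell were Mcpt4, Cma1, Cpa3 and Tpsb2, each lower in every deficient-labelled library than in any control. In deficient 3 they were at 0.93, 1.09, 1.025 and 1.07 FPKM. Their lowest control values were 7.485, 5.81, 6.53 and 5.12 FPKM. Of the erythroid list 1 gene was tested, Alas2, which rose, and of the trophoblast list 1, Peg10, which was not called (unadjusted p under 0.05); 4 of 7 erythroid and 4 of 10 trophoblast genes were listed at 0 in every library. Of 3 neutrophil markers tested, 0 were called and 0 had an unadjusted p under 0.05. In bulk tissue, fewer cells of a type and less RNA per cell cannot be told apart, and the part of these shifts in the lower Jun or the higher Fosl2 values was not tested.

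Of 13 heat shock genes, which respond to heat and handling and were all tested, 1 fell and 0 rose, with a median difference of 0.0049. The shares over all genes tested were 1.99% and 1.34%. The gene that fell, Hspb1, a small heat shock protein abundant in muscle, was at 193.1, 197.6 and 171.8 FPKM in the deficient-labelled libraries and at 590.7, 600.6 and 496.8 FPKM in the controls (log2 difference -1.58, SE 0.10, limma adjusted p = 0.0030). The inducible Hspa1a was at 4.71, 5.61 and 5.77 FPKM in the deficient-labelled libraries and at 6.33, 6.67 and 5.64 FPKM in the controls (-0.18, limma adjusted p = 0.32). Reads of Hspa1a and its near copy Hspa1b may not be told apart. The log2 difference of the chaperone Hspa8 was 0.28 (limma adjusted p = 0.31) and that of its co-chaperone Dnajb1 0.32 (limma adjusted p = 0.32). Of the 13, 6 had their highest value in deficient 3, the library with the high Atf3 (Hspa1b, Dnajb1, Dnaja1, Hsph1, Hspd1 and Bag3), and 6 had it in control 2.

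**Figure D5:**
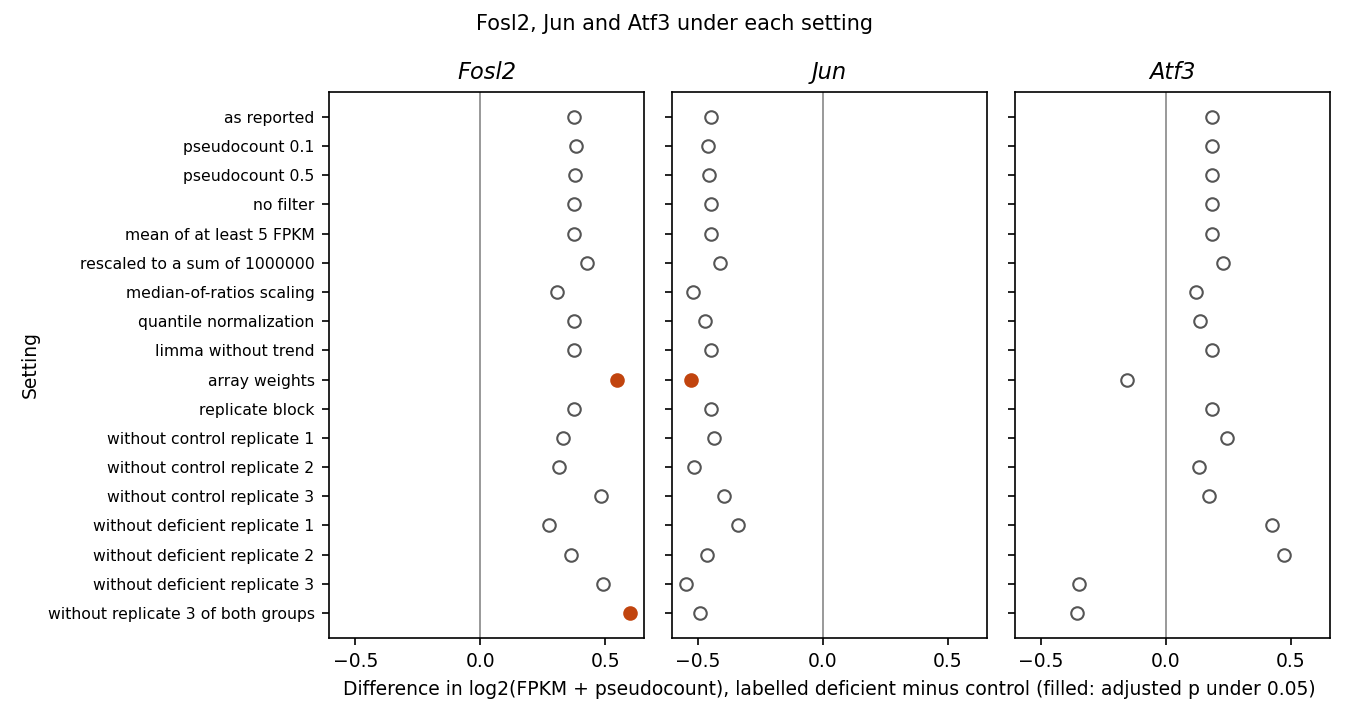
Difference in log2(FPKM + pseudocount), labelled deficient minus control, of Fosl2, Jun and Atf3 as reported and under 17 alternatives, with filled points where the adjusted p was under 0.05. Jun stays between -0.55 and -0.34, Fosl2 between 0.28 and 0.60, and Atf3 turns to -0.35 without deficient 3.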

How the data were processed

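RNA sequencing of 6 uterine libraries was analysed, 3 labelled deficient in myometrial PGR and 3 controls, grouped by their titles. The authors deposited FPKM, 1 column per library, rounded to 3 decimals. The tools named in the submitters' processing notes were STAR 2.7.0f, cutadapt 2.7 and DESeq2 1.24.0, with the build mm10 and no role or order; the counting program, its annotation and its use of strand are not known here. All 6 columns were matched by label, leaving 0 unmatched.

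The members, lists, tests and naming rule were chosen with earlier results of these data known. The rule named all 10 members, Pgr, up to 4 genes with the smallest p in each signalling or target list, every called gene there up to 8, and the 5 nearest profiles to Fos and Jun. The text says where a gene falls outside it.

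limma 3.58.1 in R 4.3.3 (lmFit, eBayes with trend) was run on log2(FPKM + 1), deficient minus control, with 12500 genes of mean at least 1 FPKM and Benjamini-Hochberg adjustment over all of them; this scale understates changes of low genes. The code was tested on simulated data. Differences are given on that log2 scale. FPKM is no count, so no count model was used. Gene positions are from GENCODE M21 (GRCm38). Alternatives were other pseudocounts, filters, scalings and variance models, array weights, a replicate block, and left-out libraries.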

Additional observations from a re-analysis of the deposited data

How the results depend on the processing

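Over 17 alternatives, the number of members called was 0 in 15. It was 2 with array weights (Jun and Fosl2) and 1 without replicate 3 of both groups (Fosl2). Array weights called 1770 genes in all (1048 higher, 722 lower), and leaving out replicate 3 of both groups 1274 (616 higher, 658 lower), against 417 (168 higher, 249 lower) as reported. Leaving out 1 library in turn gave 0 members each time, and between 99 and 519 genes, between 26 and 277 higher and between 72 and 242 lower. The same 6 fits called between 0 and 2 other immediate early genes, between 0 and 2 AP-1 target or contraction genes, and 0 in the other leucine zipper, signalling and feedback lists. Array weights called 4 other leucine zipper, 9 immediate early, 3 signalling and 5 target genes. Without replicate 3 of both groups the counts were 2, 6, 1 and 3, with 1 feedback regulator. The heat shock count stayed at 1.

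Over all genes tested, no pairing by replicate number was seen: deviations of same-numbered libraries correlated at -0.14, 0.079 and -0.13. Those of unlike-numbered libraries correlated at between -0.13 and 0.20. Deviations from a mean of 3 libraries depend on each other, so these values do not settle whether the libraries were paired. With the replicate number as a block, 143 genes were called (31 higher, 112 lower), with 0 members, 1 other immediate early gene (Plk3 lost) and 1 target gene. Some members did move with the block. Their unadjusted limma p was 0.019 for Junb, 0.065 for Fos, 0.13 for Egr1, 0.011 for Jun and 0.083 for Fosl2. Without the block, these were 0.19, 0.51, 0.34, 0.0091 and 0.034. By scaling, rescaled sums gave 218 higher and 211 lower, median-of-ratios 123 and 391, and quantile normalization 131 and 336. The median of all genes was 0.11, 0.00 and 0.02 under these scalings, against 0.06.

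Jun, Fosl2, Junb, Fosb and Egr1 kept their sign under all 17 alternatives (16 for Fosb, which a minimum of 5 FPKM drops). With 1 library left out, Junb lay between 0.11 and 0.37, Fosb between -0.32 and -0.014 and Egr1 between -0.34 and -0.023. With 1 library left out, Fos lay between -0.036 and 0.34 (negative without control 1), Jund between -0.037 and 0.22 (negative without deficient 3), Atf3 between -0.35 and 0.47 (negative without deficient 3), Ier2 between -0.033 and 0.13 (negative without control 3 or deficient 2, -0.032) and Pgr between -0.078 and 0.23 (negative without control 2, -0.068, deficient 1, -0.015, or deficient 2). Without replicate 3 of both groups, Jund was at -0.034, Atf3 at -0.36, Fosb at -0.39 and Pgr at 0.36 (limma adjusted p = 0.089). Atf3 was at -0.15 with array weights. Median-of-ratios scaling gave -0.029 for Ier2 and -0.019 for Pgr, and quantile normalization -0.0085 for Ier2 and -0.0054 for Pgr. The cause of these changes was not tested. None of the 24 genes of the signalling and target lists that the naming rule picks turned sign under the alternatives run for it; for Elk1, Mkl2, Dusp16 and Dusp10, which a minimum of 5 FPKM drops, these were 16. Fosl1 rests on few reads, and for the other members 3 libraries a group leave intervals that hold both signs, except those of Jun and Fosl2.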
